A study of Mus musculus with 8 samples.

Results

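Ribosome footprints (Ribo-seq) of mouse embryonic stem cells were compared between 2 name tags that the deposited footprint tables carry, 12_3 and 11_25. All 4 footprint libraries of the 8 libraries in the series entered, and the RNA-seq libraries did not. The tag 11_25 was carried by wild-type (WT) library 1 and METTL5 knockout (KO) library 1, and the tag 12_3 by WT library 2 and KO library 2. The genotype was kept as a block, so that each 12_3 library was set against the 11_25 library of its own genotype. Genes with at least 10 expected counts in all 4 libraries were kept, which left 11314 of 23845. Igf2 lay on that limit with 20, 10, 118 and 336 counts in WT 1, WT 2, KO 1 and KO 2, and Tex19.2 just under it with 14, 14, 9 and 6.

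The cells were mESC at passages 5 to 10, of WT or METTL5 KO genotype, with no other treatment in the labels. METTL5 is the enzyme that methylates an adenosine of 18S ribosomal RNA. The footprints came from the monosome fraction of a sucrose gradient. The labels do not say what the tag stands for or how many KO clones were used, and the KO tables are named C9. The tag runs with the replicate number in the titles, so it cannot be told apart from anything else that differed between replicate 1 and replicate 2. No combination of genotype and tag was replicated. The p-values rest on how far the tag difference in WT departed from that in KO, moderated across genes. They do not measure a spread among replicates within a tag and genotype. Footprints count ribosomes on an mRNA, so a gene's value follows both the amount of the mRNA and how densely it is translated, and these were not separated. Stem cells in culture move between a naive state and a formative state that is nearer to differentiation. LIF and its transcription factors hold the naive state, while FGF signalling through ERK drives cells out of it. MYC, the growth regulator that also supports self-renewal, lies downstream of several of these signals.

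Footprint levels of 1320 genes (11.7%) were called different between the tags, 615 (5.44%) higher and 705 (6.23%) lower in 12_3, at an adjusted p below 0.05. The median absolute log2 fold change of the called genes was 0.54, and 114 of them differed by at least 2-fold, 68 higher and 46 lower. Between genotypes the direction was shared in 1319 of the 1320 called genes, which the block favours, and in 66.3% of all kept genes. Igf2 was the exception. Over the kept genes, the WT difference (WT 2 against WT 1) and the KO difference (KO 2 against KO 1) had a Pearson r of 0.461 and a Spearman rho of 0.436. These 2 differences share no library, and genes are not independent replicates. The median absolute difference of called genes was 0.61 in WT and 0.49 in KO.

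**Figure D1:**
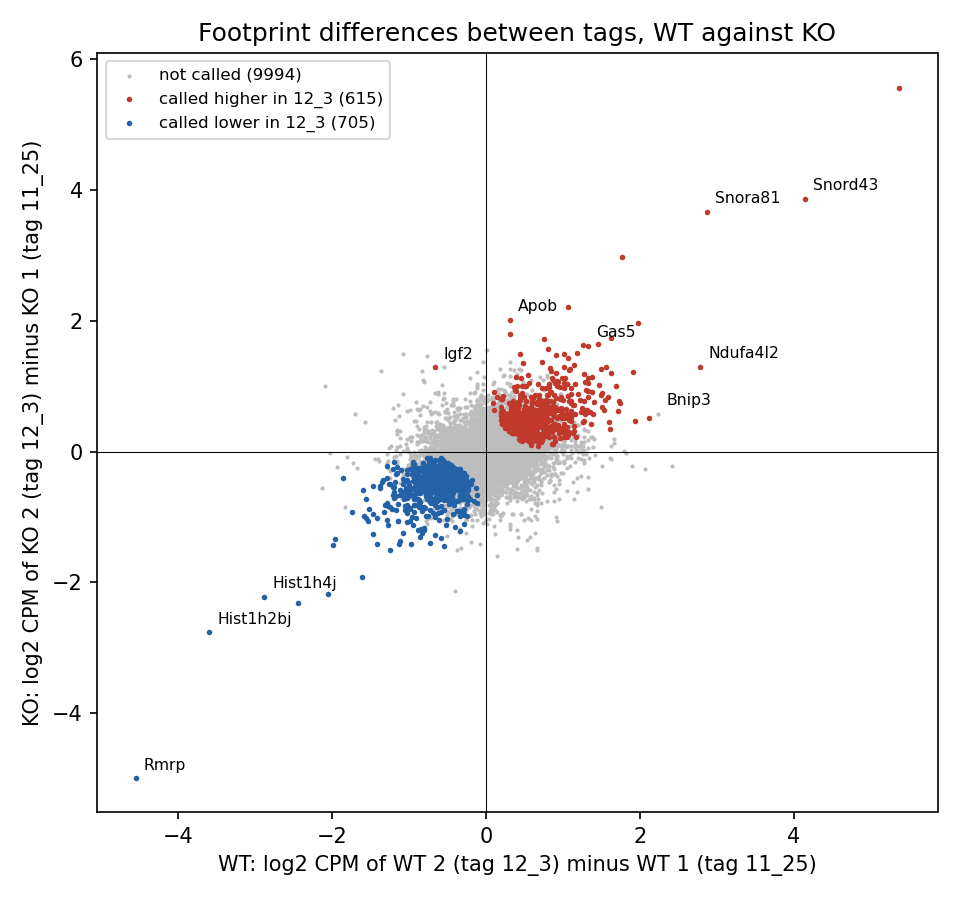
Difference in log2 CPM (counts scaled to a library total) between tags in WT (x axis) and in KO (y axis), 1 point per kept gene. Genes called higher in 12_3 are in red and those called lower in blue. For these differences the totals were those of the kept genes multiplied by TMM factors. Rmrp and 2 histone genes lie far down the diagonal and Snord43 and Snora81 far up it, and Igf2 is the called point in the upper left quadrant.

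The number of calls depended on the model. DESeq2 called 182 genes, of which 181 were among the 1320, and without the genotype block edgeR called 7. Those 7, named after their values were seen, were Snord43, Snora81 and the pseudogene Gm7977, which were higher, and Rmrp, Hist1h2bj, Hist1h2bl and the pseudogene Gm7367, which were lower. With 1 library left out, which also meant dropping the block, 7 to 47 genes were called. Library totals lay between 8401463 and 11487964 counts, and 3 counts corresponded to 0.261 to 0.357 CPM. Rn45s, the ribosomal RNA precursor, took 7.58% and 10.6% of the counts in the 11_25 libraries WT 1 and KO 1, and 10.9% and 15.2% in the 12_3 libraries WT 2 and KO 2. Its log2 fold change was 0.56 (adjusted p = 0.193 by edgeR, 0.00267 by DESeq2). Mettl5 was at 41.2 CPM (WT 1), 45.9 CPM (WT 2), 4.08 CPM (KO 1) and 4.79 CPM (KO 2), low in the libraries labelled KO, and was not called between the tags (0.19, adjusted p = 0.517).

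A shift with base composition ran through the whole comparison. Genes with little G and C in their coding sequence had more footprints in 12_3, and genes with much had fewer. Across 11081 genes with a coding sequence in GENCODE M21, the log2 fold change and the coding GC content had a Spearman rho of -0.365, and rho was -0.271 for the WT difference and -0.354 for the KO difference. The median difference went from 0.16 in WT and 0.17 in KO in the lowest decile of GC (31.9% to 44.3%) to -0.17 in WT and -0.22 in KO in the highest (60.5% to 75.6%). In the lowest decile 12% of genes were called higher and 1.17% lower, and in the highest 1.81% were called higher and 16.2% lower. Median coding GC was 53.1% over all kept genes, 48.9% in genes called higher and 58.0% in genes called lower. Gene length had a rho of -0.044.

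What such a difference in composition looks like is shown by the first 90 coding bases of 2 genes that were higher in 12_3, Cab39l and Hormad1, and of 1 that was lower, Klf2. They were read from GENCODE M21 transcripts, with each G and C in capitals. Of the 90 bases, 29 are G or C in Cab39l, 38 in Hormad1 and 59 in Klf2. Over the whole coding sequence G and C make up 43.0%, 36.2% and 70.7%, so these starts show Cab39l and Hormad1 in reverse order. The genes were picked by hand among named called genes at the low and high ends of coding GC.
Cab39l: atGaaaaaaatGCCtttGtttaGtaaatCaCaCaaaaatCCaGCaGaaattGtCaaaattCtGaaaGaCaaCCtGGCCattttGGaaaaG
Hormad1: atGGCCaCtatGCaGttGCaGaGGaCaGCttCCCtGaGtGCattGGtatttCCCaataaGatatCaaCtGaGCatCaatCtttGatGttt
Klf2: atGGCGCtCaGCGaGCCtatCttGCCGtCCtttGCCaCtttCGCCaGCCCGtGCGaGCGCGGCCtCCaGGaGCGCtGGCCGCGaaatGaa

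With the GC trend removed through offsets, an alternative chosen after seeing the data, 469 genes (4.15%) were called higher and 427 (3.77%) lower. Of these 896 genes, 748 were also among the 1320, 385 higher and 363 lower. Genes without a coding GC, among them the noncoding RNAs, got no offset. Since coding GC moved with the log2 fold change, counts with the trend removed are given beside the gene lists below. What set the trend was not tested.

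**Figure D2:**
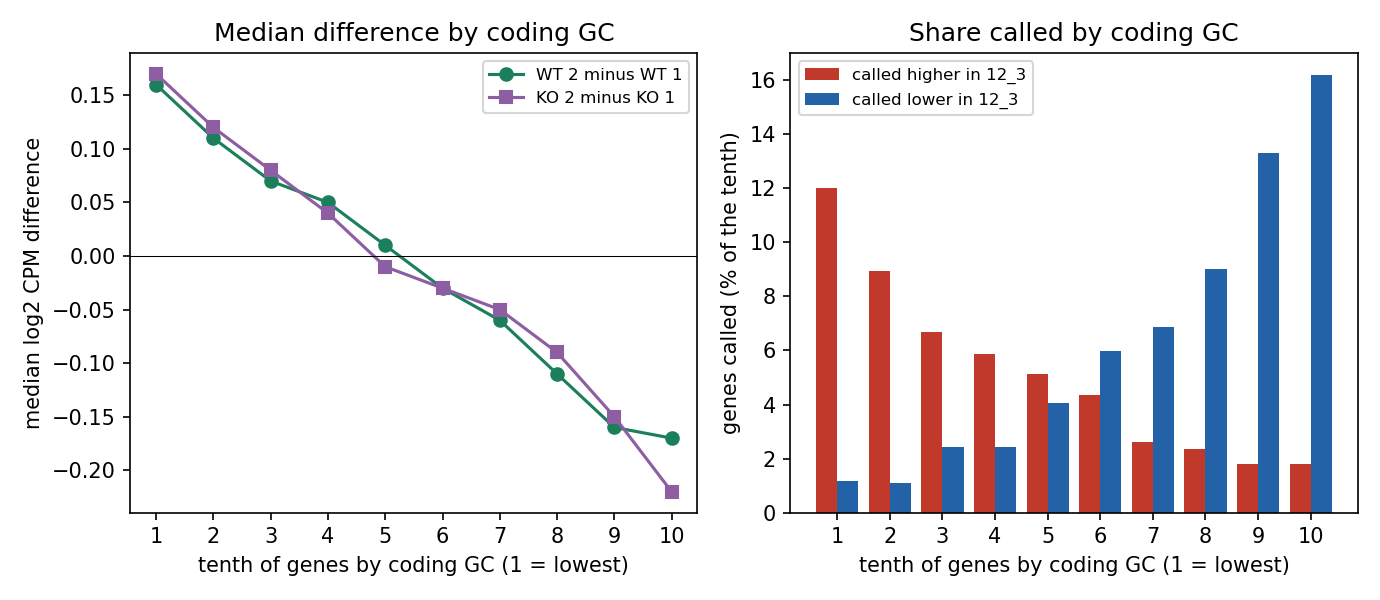
Left, median difference in log2 CPM between tags by decile of coding GC, in WT (circles) and KO (squares); right, percent of the genes of each decile called higher (red) or lower (blue) in 12_3. The WT and KO lines fall together from 0.16 and 0.17 to -0.17 and -0.22.

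Myc had fewer footprints in 12_3 than in 11_25 in both genotypes. The 11_25 libraries WT 1 and KO 1 held it at 153 and 88.2 CPM, and the 12_3 libraries WT 2 and KO 2 at 77.2 and 58.4 CPM. The 12_3 libraries were the 2 lowest, and the groups did not overlap. The log2 fold change was -0.76 (SE 0.12, adjusted p = 1.49e-05), with -1.0 in WT and -0.51 in KO. Myc lies on chromosome 15 (61985341-61990361, GRCm38), and 58.2% of its coding bases are G or C. With the GC trend removed the log2 fold change was -0.63 (adjusted p = 2.65e-04), and DESeq2 gave an adjusted p of 0.00691. Mycn, the family member that is abundant in stem cells, stood at 265 and 267 CPM in WT 1 and KO 1 against 181 and 214 CPM in WT 2 and KO 2 (-0.39, adjusted p = 0.0136). That call was lost with the GC trend removed (-0.17, adjusted p = 0.387).

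Of 16 MYC family members, partners and antagonists, 1 was called higher (6.25%, against 5.44% of all kept genes) and 3 lower (18.8%, against 6.23%). With the GC trend removed none was called higher and 1, Myc, lower. Mnt, a repressor that competes with MYC for its partner MAX, was lower at 20.5 and 22.5 CPM against 31.8 and 36.6 CPM (-0.63, adjusted p = 0.00292). Mga, a MAX partner that represses germline genes, was the member called higher, with 264 and 231 CPM in 12_3 against 196 and 213 CPM (0.31, adjusted p = 0.0473). Neither was called with the GC trend removed (adjusted p = 0.0828 and 0.376). Max itself was at 42.0 and 36.3 CPM in 11_25 and 32.9 and 40.7 CPM in 12_3, and the groups overlapped (-0.05, adjusted p = 0.875). Of 38 growth genes that MYC binds and raises, 2 were called higher (5.26%, against 5.44% of all kept genes) and 5 lower (13.2%, against 6.23%). Their median was -0.10 against -0.002 over all kept genes, and 1 was called higher and 4 lower with the GC trend removed. Nolc1, a nucleolar factor of ribosome assembly, stood at 221 and 196 CPM in 11_25 against 144 and 123 CPM in 12_3 (-0.61, adjusted p = 4.68e-05). Srm, the spermidine synthase, was at 182 and 163 against 105 and 115 CPM (-0.60, adjusted p = 1.11e-04). Polr1b, the second-largest subunit of RNA polymerase I, was at 162 and 135 against 108 and 106 CPM (-0.43, adjusted p = 0.00511). All 3 calls held with the GC trend removed. The E-box CACGTG, the sequence MYC and MAX bind, was searched on both strands in RefSeq promoter windows (GRCm38.p6, 250 bases before to 50 after the start). It was in 12.5% of the windows of 8601 kept genes, 12.6% of those called higher and 14.7% of those called lower, and 39.4% of 33 windows of the MYC target list.

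The core pluripotency genes went both ways. Of 20, 4 were called higher (20%, against 5.44% of all kept genes) and 5 lower (25%, against 6.23%), with a median of -0.04. Pou5f1, the central factor, was at 712 and 894 CPM in WT 1 and KO 1 and at 636 and 753 CPM in WT 2 and KO 2, and was not called (-0.17, adjusted p = 0.478). Sox2, its partner, was at 287 and 346 CPM in 11_25 and 304 and 261 CPM in 12_3, with opposite signs in WT (0.07) and KO (-0.32). Nanog, which stabilises self-renewal, was called higher, at 443 and 386 CPM in 12_3 against 283 and 339 CPM in 11_25, with no overlap (0.46, SE 0.12, adjusted p = 0.00877). Tdgf1, the Nodal coreceptor, was at 1100 and 947 CPM against 562 and 825 CPM (0.62, adjusted p = 0.00513). Dppa3, a maternal factor that protects DNA methylation, went from 95.8 to 146 CPM in WT and from 45.3 to 71.5 CPM in KO (0.67, adjusted p = 2.77e-05). Its tag groups overlapped, because the level also differed between genotypes. Utf1, a chromatin factor of stem cells, had the smallest p of the 5 that were lower, at 473 and 418 CPM against 677 and 668 CPM (-0.56, adjusted p = 0.00238). With the GC trend removed 4 were called higher and 2 lower, and Utf1 was not among them (adjusted p = 0.14). DESeq2 called 3 higher and 1 lower. It called Utf1 (adjusted p = 0.00724) and did not call Nanog (adjusted p = 0.0811).

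Among 22 factors of the naive state and LIF signalling, 2 were called higher (9.09%, against 5.44%) and 3 lower (13.6%, against 6.23%), with a median of -0.10, and the same numbers were called with the GC trend removed and by DESeq2. Gbx2, a target of LIF signalling that supports self-renewal, was among the 10 largest decreases of the comparison. The 11_25 libraries held it at 52.6 and 58.2 CPM and the 12_3 libraries at 24 and 20.5 CPM (-1.28, SE 0.14, adjusted p = 3.95e-09). Both 12_3 values were under those of 11_25, by more than the difference between genotypes. Klf2, a naive transcription factor, was at 128 and 147 CPM against 194 and 254 CPM (-0.65, adjusted p = 1.38e-05), and at -0.36 with the GC trend removed (adjusted p = 0.0209). The nuclear receptor Nr0b1 was at 19.3 and 28.3 CPM against 35.4 and 49.4 CPM (-0.80, adjusted p = 1.05e-04). Pecam1, a surface adhesion molecule of naive cells, was higher, at 151 and 116 CPM against 98.3 and 69.1 CPM (0.72, adjusted p = 4.34e-06). Klf4 was not called (-0.35, adjusted p = 0.0872).

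**Figure D3:**
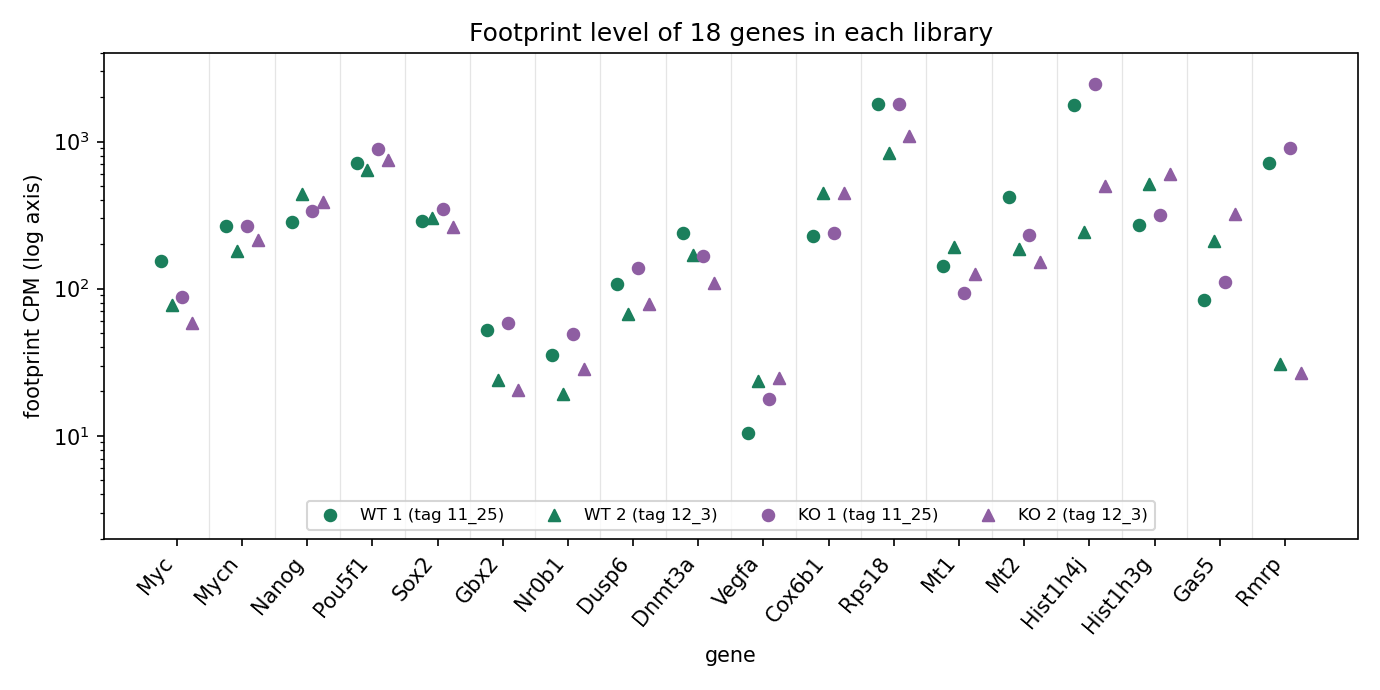
Footprint level in CPM (log axis) of 18 genes in the 4 libraries, WT in green and KO in purple, with circles for tag 11_25 and triangles for tag 12_3. Triangles lie under circles of the same colour for Myc, Gbx2, Dusp6 and Rmrp and over them for Nanog, Cox6b1 and Gas5, while the Sox2 symbols overlap.

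Formative and primed genes were lower in 12_3, the largest share called of any list with more than 10 kept members. Of 21 kept genes of 22, 13 were called lower (61.9%, against 6.23% of all kept genes) and none higher, with a median of -0.49 (WT -0.56, KO -0.34). The median coding GC of the list was 59.0%. With the GC trend removed 4 were called lower and none higher (median -0.31), and DESeq2 called 3 lower. Tcf15, a transcription factor that primes cells for differentiation, was at 44.7 and 59.9 CPM in WT 1 and KO 1 against 30 and 22.5 CPM in WT 2 and KO 2 (-0.96, SE 0.15, adjusted p = 8.81e-05). Dnmt3a, the de novo DNA methyltransferase, went from 240 to 170 CPM in WT and from 168 to 109 CPM in KO (-0.52, adjusted p = 3.97e-04). The groups of Dnmt3a overlapped narrowly, 168 CPM in KO 1 against 170 CPM in WT 2. Sall2, a zinc finger factor, was at 6.59 and 14.3 CPM against 2.98 and 6.44 CPM (-1.09, adjusted p = 0.00101). These 3 and Etv4 were the 4 called lower with the GC trend removed. Other members called lower included Pou3f1, Sox4, Zic2, Zic5, Lef1, Foxd3, Utf1 and Pim2. Dnmt3b (-0.13, adjusted p = 0.567) and Otx2 (-0.38, adjusted p = 0.0678) were not called.

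Targets and feedback inhibitors of FGF and ERK signalling were also called only downward. Of 17 kept genes of 21, 7 were called lower and none higher (41.2% against 6.23%), with a median of -0.27 and a similar value in WT (-0.28) and KO (-0.30). Dusp6, the phosphatase that ERK induces and that switches ERK off, was at 107 and 138 CPM in 11_25 against 67.7 and 78.8 CPM in 12_3 (-0.69, SE 0.11, adjusted p = 9.35e-06). Dusp4, a nuclear phosphatase of the same family, was at 45.3 and 38.6 against 21.1 and 24.2 CPM (-0.84, adjusted p = 9.34e-05). Etv4, an ERK-responsive transcription factor that is also on the formative list, went from 53.7 to 39.9 CPM in WT and from 32.5 to 19 CPM in KO (-0.55, adjusted p = 0.00612). These 3 were also called with the GC trend removed, and Ier3 was then called higher (0.61, adjusted p = 0.0217). DESeq2 called 2 of the list. The inhibitors Spry2 (-0.09, adjusted p = 0.669) and Spred1 (-0.01, adjusted p = 0.984) were not called. The median coding GC of the list was 57.5%.

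Immediate early genes, which serum or stress induce within minutes, went both ways, with 2 of 21 called higher (9.52%, against 5.44%) and 6 lower (28.6%, against 6.23%). Egr1, a transcription factor of this class, was at 12.4 and 18.2 CPM in 12_3 against 31.4 and 26.6 CPM in 11_25 (-0.88, adjusted p = 0.00148). Zfp36l1, which destabilises mRNAs with AU-rich ends, was at 38.6 and 59.5 against 72.7 and 87.7 CPM (-0.69, adjusted p = 1.05e-04). Btg1, an antiproliferative gene, was higher at 24.4 and 27.2 against 9.36 and 21.3 CPM (0.85, adjusted p = 0.0028). With the GC trend removed 4 were called higher and 3 lower. None of 13 kept BMP and ID genes was called by edgeR or DESeq2. Among Wnt genes 3 of 13 were called lower (23.1%, against 6.23%), Tcf7l1, a repressor of Wnt targets (-0.68, adjusted p = 0.00129), Ccnd1 and Lef1. Of these, Tcf7l1 alone was called with the GC trend removed, and the list median went from -0.08 to 0.01. DESeq2 called none.

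**Figure D4:**
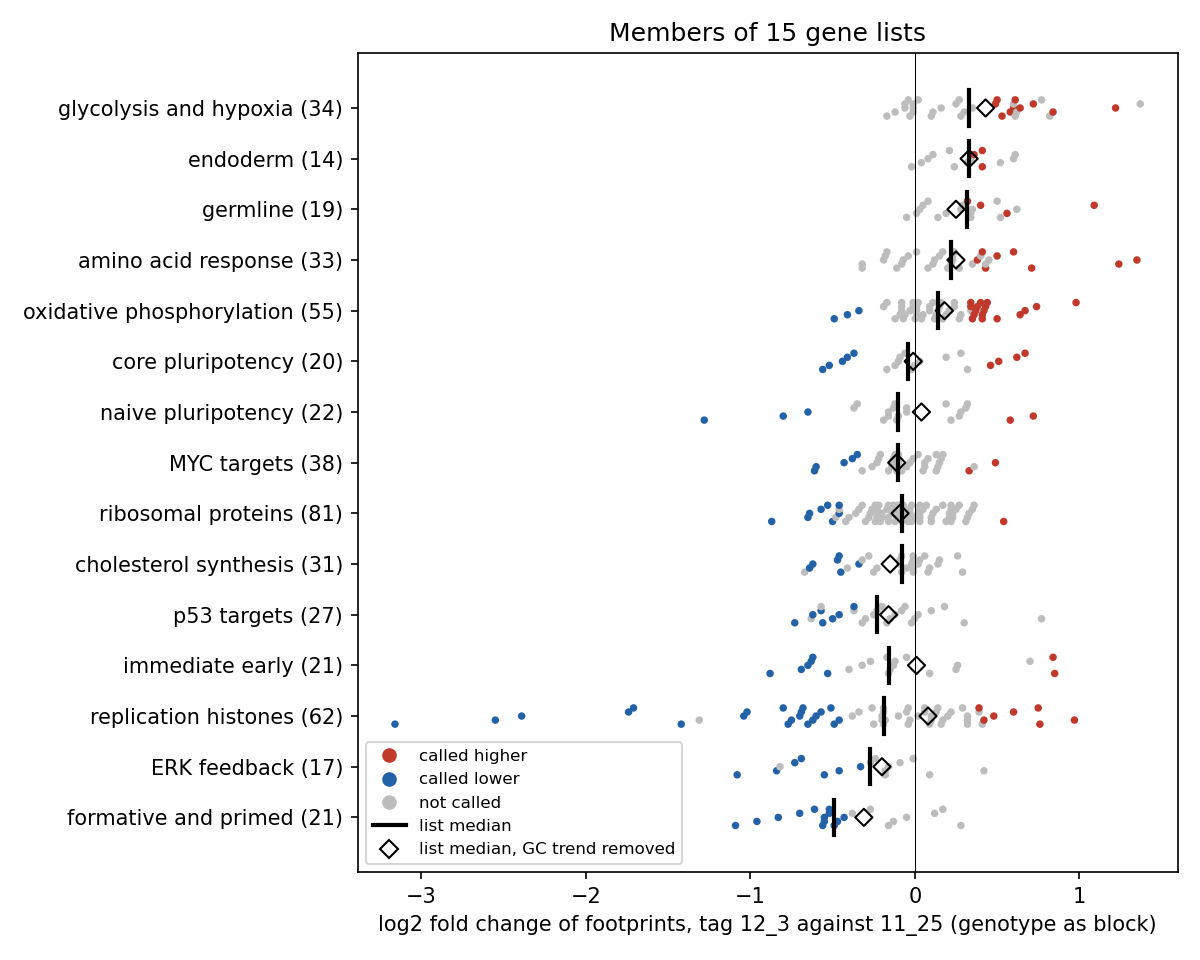
Log2 fold change of footprints in 12_3 against 11_25 (x axis) for the kept members of 15 gene lists (number kept in parentheses), coloured by call, with the list median as a bar and the median with the GC trend removed as a diamond. The formative and primed median is -0.49 and that of glycolysis and hypoxia 0.33, and the histone median changes sign between bar and diamond, from -0.19 to 0.08.

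Glycolytic and hypoxia-induced genes were called only upward, 10 of 34 kept (29.4%, against 5.44% of all kept genes). The list median was 0.33, but it was 0.61 in WT and 0.02 in KO, and the difference between genotypes could not be tested. Removing the GC trend left 11 called higher and a median of 0.43, and DESeq2 called 2. P4ha1, a collagen prolyl hydroxylase induced by HIF, was at 76.3 and 77.6 CPM in 12_3 against 42.0 and 54.8 CPM in 11_25 (0.72, SE 0.12, adjusted p = 3.47e-05). Ero1l, an oxidase of protein folding, was at 86.7 and 91.2 against 48.3 and 74.1 CPM (0.61, adjusted p = 4.11e-04). Ankrd37, a small HIF target, went from 6.02 to 17.7 CPM in WT and from 4.93 to 8.10 CPM in KO (1.22, adjusted p = 1.41e-04). Vegfa, the vascular growth factor, was at 23.7 and 24.7 against 10.5 and 17.7 CPM (0.84, adjusted p = 4.70e-04). Ndufa4l2, a HIF-induced relative of a respiratory chain subunit, is not on this list and was the largest increase by the naming rule. It was at 14.2 and 12.5 CPM in 12_3 against 2.01 and 5.36 CPM in 11_25 (1.94, adjusted p = 6.50e-05). Bnip3, the mitophagy receptor, was at 160 and 120 against 33.6 and 85.2 CPM (1.37). It was not called (adjusted p = 0.544), with 2.24 in WT and 0.58 in KO. Among abundant enzymes of glycolysis, Gapdh (-0.12, adjusted p = 0.762) and Pgam1 (0.02, adjusted p = 0.953) were not called, and Ldha (0.49, adjusted p = 0.03) and Tpi1 (0.50, adjusted p = 0.0295) were called higher.

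Nuclear-encoded subunits of the respiratory chain were called mostly upward, 17 of 55 higher (30.9%, against 5.44%) and 3 lower (5.45%, against 6.23%), with a median difference of 0.13 in WT and 0.12 in KO. Cox6b1, a subunit of cytochrome c oxidase, was at 444 and 448 CPM in 12_3 against 227 and 240 CPM in 11_25 (0.98, SE 0.12, adjusted p = 4.42e-08). The values within a tag differed little beside the gap between tags. Atp5e, the epsilon subunit of ATP synthase, was at 195 and 176 against 105 and 123 CPM (0.74, adjusted p = 1.83e-06). Ndufa8, a subunit of complex I, was at 109 and 85.2 against 65.0 and 59.9 CPM (0.67, adjusted p = 3.48e-05). The 3 called lower were Ndufa2, Cyc1 and Cox6a1. Removing the GC trend left 12 called higher and 1, Cyc1, lower, and DESeq2 called 5 higher and none lower.

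ATF4 targets, which cells raise when amino acids run short, had 8 of 33 kept members called higher and none lower (24.2% against 5.44%). The median was 0.22, with 0.24 in WT and 0.15 in KO, and 7 were called higher with the GC trend removed. DESeq2 called none. Vldlr, a lipoprotein receptor and ATF4 target, went from 1.53 to 4.40 CPM in WT and from 4.51 to 10.3 CPM in KO (1.35, adjusted p = 5.95e-04). Stc2, a secreted stress glycoprotein, went from 8.03 to 16.1 and from 19.6 to 26.4 CPM (0.71, adjusted p = 0.00339). Aldh18a1, an enzyme of proline synthesis, went from 92.1 to 119 and from 123 to 164 CPM (0.43, adjusted p = 0.00406). All 3 were higher in KO, and their tag groups overlapped for that reason. The ATF4 element TGATGCAA, searched on both strands, was in 18.5% of 27 promoter windows of this list, whose members were chosen as ATF4 targets. It was in 0.698% of those of all kept genes, 1.37% of those called higher and 0.794% of those called lower. Its share was 33.3% of 12 windows of aminoacyl-tRNA synthetases. Of aminoacyl-tRNA synthetases, 1 of 20 was called higher (5%, against 5.44%) and 2 lower (10%, against 6.23%), and with the GC trend removed none higher and 1 lower. Sterol synthesis genes were called only downward, 6 of 31 (19.4%, against 6.23%), including Dhcr7 (-0.62, adjusted p = 9.86e-05), a reductase of the last steps, and with the GC trend removed 2 were called higher and 2 lower.

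Ribosomal proteins had 8 of 81 called lower (9.88%, against 6.23%) and 1 higher (1.23%, against 5.44%), and 7 lower and 1 higher with the GC trend removed. The list median was -0.24 in WT and 0.12 in KO. Rps18, a protein of the small subunit, was at 842 and 1090 CPM in 12_3 against 1790 and 1810 CPM in 11_25 (-0.87, SE 0.15, adjusted p = 8.68e-05). Rps15a was at 191 and 176 against 370 and 237 CPM (-0.65, adjusted p = 8.63e-04), and Rps16 at 835 and 1090 against 1530 and 1540 CPM (-0.64, adjusted p = 0.00308). Of the 8 called lower, 5 belong to the small subunit and 3, Rpl14, Rpl18 and Rpl36, to the large subunit. Rpl38 was the member called higher, at 1560 and 1430 against 1160 and 961 CPM (0.54, adjusted p = 0.0105). Near-identical ribosomal pseudogenes can share reads with these genes, so single members are uncertain. Translation factors had 8 of 46 called lower (17.4%) and none higher, both as fitted (6.23% of all kept genes lower) and with the GC trend removed (3.77%), and DESeq2 called 1. Eif3l, a subunit of initiation factor 3, was at 161 and 172 CPM against 296 and 269 CPM (-0.72, adjusted p = 6.72e-06). Eif1ax, a factor of start codon scanning, was at 167 and 132 against 214 and 211 CPM (-0.48, adjusted p = 0.0014). Of 49 nucleolar assembly factors 1 was called higher (2.04%, against 5.44%) and 5 lower (10.2%, against 6.23%), and 1 and 3 with the GC trend removed. The lower members were led by Polr1c, shared by RNA polymerases I and III, at 109 and 98.7 against 198 and 148 CPM (-0.69, adjusted p = 1.59e-05).

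Replication histone genes spread widely, from -3.16 to 0.97. Of 62 kept, 21 were called lower (33.9%, against 6.23%) and 7 higher (11.3%, against 5.44%). These genes are transcribed in S phase and their mRNAs carry a stem-loop in place of a poly(A) tail. Hist1h2bj was at 220 and 156 CPM in WT 1 and KO 1 against 18.2 and 21.7 CPM in WT 2 and KO 2 (-3.16, SE 0.17, adjusted p = 8.66e-08). Hist1h4j was at 1780 and 2450 CPM against 243 and 497 CPM (-2.55, adjusted p = 7.41e-15). Hist1h2bl was at 64.0 and 56.1 CPM against 11.8 and 10.5 CPM (-2.39, adjusted p = 3.87e-17), and Hist1h3e at 715 and 890 CPM against 181 and 311 CPM (-1.71, adjusted p = 5.10e-12). In the other direction, Hist1h3g was at 515 and 604 CPM against 270 and 318 CPM (0.97, adjusted p = 1.45e-07), and the linker histone gene Hist1h1b at 1990 and 1640 CPM against 1010 and 1190 CPM (0.76, adjusted p = 5.95e-04). So genes for the same core histone moved in opposite directions, with Hist1h3e lower and Hist1h3g higher. The summed level of the listed genes was 30900 and 37200 CPM in 11_25 and 29800 and 28200 CPM in 12_3. The median coding GC of the list was 65.7%, and with the GC trend removed 17 were called higher and 16 lower. DESeq2 called 3 higher and 18 lower. Histone copies are close to identical in sequence, and RSEM divides reads that fit several of them, so each single copy is uncertain.

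Some of the largest single differences lay on structural RNAs, whose reads need not come from ribosomes. Rmrp, the RNA of the RNase MRP complex that processes ribosomal RNA (chromosome 4, 43492788-43493058, minus strand, GRCm38), took 719 and 902 CPM of the 11_25 libraries WT 1 and KO 1 and 30.7 and 26.7 CPM of the 12_3 libraries. That was 27.4-fold lower in 12_3 (-4.78, SE 0.15, adjusted p = 1.40e-28). Snord43, a box C/D snoRNA that lies in an intron of Rpl3, moved the other way, from 3.82 to 68.4 CPM in WT and from 6.54 to 90.6 CPM in KO (4.0, SE 0.17, adjusted p = 8.76e-25). Snora81, a box H/ACA snoRNA within Eif4a2 that overlaps an annotated exon of it and may share its reads, went from 2.87 to 21.3 CPM and from 2.04 to 25.1 CPM (3.26, adjusted p = 1.85e-15). Both snoRNAs were named after their values were seen, and the groups of neither overlap. Their host genes were not called, with -0.10 for Rpl3 (adjusted p = 0.768) and 0.30 for Eif4a2 (adjusted p = 0.0584). Snord43 is shown because its counts differ 16.0-fold over a gene of only 108 annotated bases (chr15:80082847-80082954, minus strand, GRCm38). Capitals mark TGATGA and CTGA, the letters of the C and D boxes that give the class its name.
Snord43: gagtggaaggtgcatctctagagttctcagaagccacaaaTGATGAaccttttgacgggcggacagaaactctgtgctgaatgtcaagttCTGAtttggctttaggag

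Gas5, a long noncoding RNA whose introns hold many snoRNAs (chromosome 1, 161034422-161038539), was at 211 and 323 CPM in 12_3 against 83.2 and 111 CPM in 11_25 (1.48, SE 0.11, adjusted p = 6.34e-15). Snhg3, another snoRNA host, was at 44.2 and 38.3 against 18 and 27.1 CPM (0.92, adjusted p = 9.86e-05), and the nuclear RNA Malat1 at 69.7 and 61.5 against 46.4 and 46.3 CPM (0.54, adjusted p = 0.00204). The hosts Snhg1 (0.07, adjusted p = 0.824) and Snhg5 (0.11, adjusted p = 0.699) were not called. Of 13 kept noncoding RNAs on the list, 4 were called higher (30.8%, against 5.44%) and 1 lower (7.69%, against 6.23%), and 3 and 1 with the GC trend removed. None of the 13 has a coding GC, so they got no offset and the second count does not test GC for them. Of 118 kept lncRNAs in all, 22 were called higher and 5 lower, against 5.44% and 6.23% of all kept genes.

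Germline genes that stem cells transcribe were called only upward, 4 of 19 kept (21.1%, against 5.44%), and 18 of the 19 had positive values (median 0.32, WT 0.34, KO 0.29). Sycp3, of the synaptonemal complex, was at 7.62 and 5.40 CPM in 12_3 against 2.58 and 3.65 CPM in 11_25 (1.09, SE 0.28, adjusted p = 0.0073). Hormad1, a protein of meiotic chromosome axes, was at 14.4 and 16.1 against 9.65 and 11.7 CPM (0.56, adjusted p = 0.0334). Tdrd12, a piRNA factor, was at 71.1 and 61.8 against 58.7 and 45.6 CPM (0.40, adjusted p = 0.0244). No member was called with the GC trend removed, at a median of 0.25, or by DESeq2; the median coding GC of the list was 48.8%. The E-box CACGTG was in 6 of 16 promoter windows of this list (37.5%, against 12.5% of all). The windows of Hormad1 and Sycp3 are shown because both hold 2 such boxes, in capitals. MGA, which binds this sequence with MAX, is known to silence germline genes in stem cells. Mga was itself called higher in 12_3, as given above, and whether it had a part in these values was not tested. They are RefSeq promoters of GRCm38.p6, chr3:95559427-95559726 and chr10:88459337-88459636, both on the plus strand. A match is a description of letters and not of binding.
Hormad1: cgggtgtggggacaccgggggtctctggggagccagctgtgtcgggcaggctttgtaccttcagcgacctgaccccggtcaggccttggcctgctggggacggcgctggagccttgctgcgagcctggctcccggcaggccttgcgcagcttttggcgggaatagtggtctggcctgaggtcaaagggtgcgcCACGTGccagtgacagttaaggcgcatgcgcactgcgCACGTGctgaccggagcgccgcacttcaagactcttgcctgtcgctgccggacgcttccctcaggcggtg
Sycp3: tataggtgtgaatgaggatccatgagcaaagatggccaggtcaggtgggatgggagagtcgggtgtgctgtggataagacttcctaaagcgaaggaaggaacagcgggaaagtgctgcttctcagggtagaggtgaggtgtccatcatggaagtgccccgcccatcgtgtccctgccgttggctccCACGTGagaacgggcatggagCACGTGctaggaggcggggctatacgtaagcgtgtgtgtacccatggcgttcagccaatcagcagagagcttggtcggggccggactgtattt

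The list of genes raised by p53, which also counts Trp53, was called only downward, 7 of 27 (25.9%, against 6.23%), with a median of -0.23. Trp53 itself, the tumour suppressor, was at 448 and 395 CPM in 12_3 against 631 and 562 CPM in 11_25 (-0.46, adjusted p = 0.0109). Gtse1, which binds p53 in G2, was at 169 and 148 against 249 and 231 CPM (-0.56, adjusted p = 1.81e-04), and Plk2, a kinase, at 19.5 and 31.5 against 33.3 and 44.1 CPM (-0.57, adjusted p = 0.00599). Removing the GC trend left 5 called lower and 1 higher, and DESeq2 called 1. The metallothioneins parted, although zinc induces both main members. Mt1 was higher, going from 142 to 193 CPM in WT and from 93.9 to 126 CPM in KO (0.47, adjusted p = 0.00156), and Mt2 was lower, at 186 and 151 CPM against 421 and 233 CPM (-0.87, adjusted p = 5.32e-05). Mt3 was higher, going from 23.6 to 49.0 CPM and from 7.51 to 10.4 CPM (0.86, adjusted p = 2.98e-04), and without WT 2, with the block dropped, it was -0.52. The antioxidant list had 4 of 20 called lower (20%, against 6.23%) and 3 with the GC trend removed, among them the ferritin heavy chain Fth1 (-0.51, adjusted p = 0.00163), and DESeq2 called none. In the cell cycle lists, 1 of 40 replication genes was called higher (2.5%, against 5.44%) and 2 lower (5%, against 6.23%), and none and 3 with the GC trend removed. Of 34 mitotic genes, 4 were called higher (11.8%, against 5.44%) and 3 lower (8.82%, against 6.23%), but none higher and 2 lower with the GC trend removed. Among the replication genes Pola2, of DNA polymerase alpha, was at 151 and 161 CPM against 338 and 318 CPM (-1.04, adjusted p = 1.80e-09).

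Stem cell markers and the markers of other cell types were read as levels by tag. The 8 stem cell markers Pou5f1, Sox2, Nanog, Zfp42, Dppa5a, Esrrb, Tdgf1 and Utf1 were present in all 4 libraries, Zfp42 at 691 to 1100 CPM and Esrrb at 302 to 402 CPM. Fibroblast markers, which feeder cells would bring, summed to 1990 and 3110 CPM in 11_25 and 1790 and 3170 CPM in 12_3, with 11 of 21 kept and Lum at 0 in all 4. Of these, Pdgfrb (0.77, adjusted p = 0.0252) and Col5a1 (0.48, adjusted p = 0.0302) were called higher, also with the GC trend removed. That was 18.2% of the kept fibroblast markers, against 5.44% of all kept genes, and none was called lower. Of the 11 kept fibroblast markers, 7 had negative values, and the median was -0.13, with -0.38 in WT and 0.54 in KO. Endoderm markers summed to 3250 and 3560 CPM against 3500 and 3900 CPM, with 14 of 24 kept. The basement membrane genes Col4a1 (0.41, adjusted p = 0.00931), Col4a2 (0.41, adjusted p = 0.0118) and Lama1 (0.36, adjusted p = 0.0466) were called higher, also with the GC trend removed. That was 21.4% of the kept endoderm markers, against 5.44% of all kept genes, and DESeq2 called none of the list. Trophoblast markers summed to 211 and 404 CPM against 222 and 448 CPM, with 10 of 17 kept. The keratins Krt19 and Krt42 were called higher (20% of the kept, against 5.44% of all kept genes), also with the GC trend removed. The listed factors Cdx2, Elf5, Tfap2a, Gata2 and Gata3 were under the count limit in at least 1 library. Mesoderm markers summed to 37.8 and 41.5 CPM against 25 and 51.4 CPM, and none of 6 kept was called by edgeR or DESeq2; with the GC trend removed edgeR called Kdr lower (-0.83, adjusted p = 0.047). Neural markers summed to 475 and 482 CPM against 317 and 490 CPM, with 9 of 18 kept and Neurog2 at 0 in all 4. Tubb3 was the member called lower (-0.40, adjusted p = 0.0204), 11.1% of the kept against 6.23% of all kept genes. That call was lost with the GC trend removed (-0.27, adjusted p = 0.169). Of 21 two-cell-like genes in the tables only Zscan4f was kept, and the list summed to 13.9 and 30.4 CPM against 9.91 and 14.3 CPM. Leaving out 1 library, with the block dropped, reversed the sign of Col4a1, Col4a2, Lama1, Krt19, Krt42, Tubb3 and Col5a1, whose levels also differed between genotypes. In bulk samples, fewer cells of a type and less RNA per cell cannot be told apart.

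Of the other large differences by the naming rule, most concerned genes of low level. Apob, the lipoprotein of yolk sac and liver, went from 5.36 to 20.6 CPM in KO and from 1.91 to 2.38 CPM in WT (1.57, adjusted p = 9.95e-04), and without KO 2, with the block dropped, it was -0.59. Slfn8 was at 8.81 and 8.27 CPM in 12_3 against 3.63 and 2.79 CPM (1.45, adjusted p = 9.71e-05). Cab39l, of the family that scaffolds the kinase LKB1, was at 28.6 and 17.9 against 10.2 and 9.33 CPM (1.26, adjusted p = 8.83e-07). A2m, a protease inhibitor, was at 63.7 and 40.0 against 18.9 and 25.3 CPM (1.24, adjusted p = 0.00136), and Calb2, a calcium-binding protein, at 13.6 and 11 against 6.69 and 4.08 CPM (1.24, adjusted p = 8.11e-05). The class I genes H2-L and H2-D1, which share reads and are uncertain, went in opposite directions, 1.49 and -0.80. Among decreases, Rbm38, an RNA-binding protein under p53, was at 20.9 and 21.3 CPM against 57.6 and 54.4 CPM (-1.36, adjusted p = 6.23e-10), and the chemokine receptor Cxcr2 at 12.6 and 20 against 42.0 and 40.2 CPM (-1.30, adjusted p = 3.72e-06). In imprinted genes, 3 of 25 kept were called, all higher (12%, against 5.44%), and 2 of them with the GC trend removed. Phlda2 was at 96.9 and 98.5 against 67.2 and 75.1 CPM (0.50, adjusted p = 0.00141). Igf2, the fetal growth factor, was called (0.96, adjusted p = 0.0413) although it was lower in WT, 1.19 against 1.91 CPM, and higher in KO, 29.2 against 12.7 CPM. Without KO 2, with the block dropped, it was -2.58.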

How the data were processed

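The 4 Ribo-seq tables were used. Each deposited table gives, per the file headers, expected counts as RSEM estimates them and TPM values for every gene symbol. Bowtie2 2.3.4.3 and RSEM are the tools in the submitters' processing notes. No strand setting is given in the sources used. Expected counts were rounded to whole numbers, genes with at least 10 in all 4 libraries were kept, and edgeR 4.0.16 (TMM factors, robust quasi-likelihood test) was fitted with genotype and tag terms, which left 1 residual degree of freedom per gene, moderated across genes. P-values were adjusted over all kept genes (Benjamini-Hochberg), with calls below 0.05. Positive log2 fold changes mean higher in 12_3. WT and KO differences are log2 CPM differences after adding 0.5, on totals of the kept genes multiplied by TMM factors. They therefore depart slightly from ratios of the printed CPM values. SEs derive from the F statistics. CPM values are on library totals with Rn45s. A test of whether the tag difference depends on genotype would leave no residual degree of freedom and was not made. The deposited TPM entered 1 alternative. Other alternatives were DESeq2 1.42.0, limma 3.58.1, scalings, filters, trends removed (loess span 0.5) and left-out libraries. In the footprint tables the effective length equals the length, so no fragment length could be read from them. The steps were tested on simulated data.

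The members and gene lists were chosen with earlier results of these data known. Named were Myc, Mycn, Max, Mettl5, Pou5f1, Sox2, Nanog, Klf4, the 10 largest called increases and 10 largest called decreases with a mean count of at least 50 and the same sign in both genotypes, leaving out clone, Mir, Snor and pseudogene names, and up to 3 called members per list by smallest p, or up to 2 where none was called. Other genes named were chosen after their values were seen. Some members of the lists are counted but not reported here by name.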

Additional observations from a re-analysis of the deposited data

Results flagged for a closer look

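Differences between tags that pointed one way in WT and the other way in KO are given here as KO minus WT differences, none of them tested. Of the list medians, those of naive pluripotency (-0.33) and two-cell-like genes (-1.43, from 1 kept gene, Zscan4f) were more negative in KO. Those of ribosome biogenesis (0.19), ribosomal proteins (0.36), translation factors (0.17), the unfolded protein response (0.32), heat shock (0.28), mesoderm (0.37), fibroblast markers (0.92), actin and YAP targets (0.6), imprinted genes (0.24) and the metal response (0.13) were more positive in KO. For ribosomal proteins the median was -0.24 in WT and 0.12 in KO, and for fibroblast markers -0.38 and 0.54. Of single genes, Max differed by 0.61, Sox2 by -0.4, Zscan4f by -1.43 and Igf2 by 1.95. Igf2, with 10 counts in WT 2, was the called gene whose signs were opposite.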

How the results depend on the processing

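Against 1320 calls (615 higher, 705 lower), DESeq2 gave 182 (74 and 108), a test against a 1.2-fold change 332 (162 and 170), a mean count of at least 50 793 (371 and 422), and no genotype block 7 (3 and 4). The GC trend removed left 427 called lower. RLE, upper-quartile and no-Rn45s scalings, voom, log2(TPM + 1), filterByExpr, no filter, and length or chromosome trends removed gave 1014 to 1506 calls. Of 108 named genes called, 88 were called with the GC trend removed, 43 of 92 with a value by DESeq2 and 3 without the block. Leaving out 1 library meant dropping the block, since no residual degree of freedom was left with it, so genotype then entered the contrast and the lone library was assumed to vary like the rest. Calls ranged from 7 (without WT 1) to 47 (without KO 2), higher from 3 to 19 and lower from 4 to 28. No paired analysis was possible by replicate number, because the replicate number is itself the contrast. The main fit paired the libraries by genotype instead, through the block. With the GC trend removed the sign reversed for Mettl5 (-0.04) and Sox2 (0.13). Over the 4 left-out libraries the sign also reversed for these genes, whose log2 fold changes went from -0.25 (without KO 2) to 0.13 (without WT 2) for Max, -2.18 (without WT 2) to 2.65 (without WT 1) for Mettl5, -0.24 (without WT 1) to 0.004 (without KO 1) for Sox2, -0.59 (without KO 2) to 2.66 (without KO 1) for Apob, -0.84 (without WT 1) to 0.7 (without KO 1) for Zscan4f, -0.59 (without WT 2) to 1.52 (without WT 1) for Col4a1, -0.31 (without WT 2) to 1.28 (without WT 1) for Col4a2, -0.004 (without KO 1) to 0.76 (without WT 1) for Lama1, -0.26 (without KO 2) to 1.3 (without KO 1) for Krt19, -0.24 (without WT 2) to 1.4 (without WT 1) for Krt42, -0.94 (without KO 1) to 0.22 (without WT 1) for Tubb3, -0.89 (without KO 2) to 1.6 (without KO 1) for Col5a1, -2.58 (without KO 2) to 3.07 (without KO 1) for Igf2 and -0.52 (without WT 2) to 2 (without WT 1) for Mt3. The cause was not tested. The 10-count limit left 12531 genes out, and with 3 counts at 0.261 to 0.357 CPM differences of genes at a few CPM are the least precise.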

Other observations

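Targets of SRF and YAP, which follow cell spreading and contact, parted in direction. Of 21 kept, 3 were called higher (14.3%, against 5.44% of all kept genes) and 2 lower (9.52%, against 6.23%). The counts were the same with the GC trend removed (4.15% and 3.77% of all kept genes). Ankrd1, a YAP target, was at 2.26 and 12.4 CPM in 12_3 against 1.05 and 2.79 CPM in 11_25 (1.91, adjusted p = 3.55e-05), while Ctgf, another, was at 29.4 and 48.5 against 76.0 and 75.8 CPM (-0.95, adjusted p = 0.00138). Zyx, a focal adhesion protein, was at 13.2 and 26.5 against 31.4 and 39.4 CPM (-0.83, adjusted p = 8.11e-04). Among Nodal genes, Nodal itself was lower, at 31.9 and 54.8 against 53.2 and 70.7 CPM (-0.50, adjusted p = 0.00772), and its coreceptor Tdgf1 was higher. Nodal was not called with the GC trend removed (adjusted p = 0.0923). Of the unfolded protein response genes, 2 of 20 were called higher (10%, against 5.44%) and 1 lower (5%, against 6.23%), and 2 and 2 with the GC trend removed. The member called lower as fitted was Syvn1, an E3 ligase of the endoplasmic reticulum. Its level was 16.4 and 20.7 against 33.3 and 33.1 CPM (-0.80, adjusted p = 2.79e-04). Of 17 kept interferon genes 2 were called, both lower (11.8%, against 6.23%) and also with the GC trend removed. These were Irf3 (-0.67, adjusted p = 0.00106) and H2-D1 (-0.80), which shares reads with H2-L and is uncertain. Srsf2, a splicing factor named after its value was seen, was at 170 and 187 CPM against 452 and 402 CPM (-1.22, adjusted p = 2.47e-10), and at -0.94 with the GC trend removed (adjusted p = 1.92e-07). Genes on the X chromosome, with a median coding GC of 49.4%, had a median of 0.12, against -0.05 to 0.06 on the autosomes. With the GC trend removed it was 0.04, against -0.04 to 0.03.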
